A study of Mus musculus with 8 samples.

Results

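The genes described here are Foxi3, the gene targeted in the study, and 9 other forkhead transcription factor genes. They were chosen by a list of 10 Ensembl mouse gene identifiers with their symbols, and all 10 were found among the 26165 genes of the deposited table, 1 row each. The list was not chosen by a threshold on the values, and no filter on low values was applied. RNA was taken from mandibular molar epithelium, separated with dispase, of mouse embryos at E13.5. Each Affymetrix array measured a pool of molars from 5 embryos that shared a genotype. There were 4 pools of the conditional knockout and 4 pools titled wild type, 8 arrays in all. Knockout pools (cKO) carried the Cre transgene K14-cre43, in which a keratin 14 promoter drives Cre recombinase in epithelium, together with 1 floxed Foxi3 allele and, by the series' design text, 1 null Foxi3 allele. The pools titled wild type are labelled Foxi3+/floxed, so a floxed allele is present in both groups, and no Cre is named for them. Effects of the Cre transgene, of the germline null allele and of the deletion in epithelium cannot be told apart in this design.

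Forkhead factors bind DNA through a conserved winged-helix domain, the forkhead box, and the letter in each name marks the subfamily. Foxi3 is expressed in the epithelial placodes from which teeth, hair and other ectodermal organs grow, and FOXI3 mutation in dogs underlies hairless breeds with missing teeth. Foxi1 and Foxi2 are its closest relatives among the genes described here. The Foxp proteins act mainly as repressors and pair with one another through a leucine zipper. The remaining genes belong to other subfamilies with roles in epithelia or in the mesenchyme and skeleton of the head.

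None of the 10 genes passed the threshold for a genotype difference (limma adjusted p under 0.05), which 1.31% of all genes passed, and the mean of Foxi3 itself was not lower on the arrays labelled cKO. Foxi3 averaged 1.21-fold higher on them than on the wild-type arrays, a log2 difference of 0.28. Foxe1 showed the next largest difference, 0.27. Foxi1, with a difference of −0.14, was the only one of the 3 Foxi genes whose 4 cKO values all lay below its 4 wild-type values, as was seen in 3.71% of all genes. Foxp1, Foxp4 and Foxq1 differed by less than 0.03.

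Sequence upstream of the transcription start is shown for the 3 Foxi genes, since these are the targeted gene and its nearest relatives. Each stretch holds the 250 bases before the start, 5′ to 3′ on the gene's strand, from RefSeq on build GRCm38.p6. Capitals mark matches to TGTTT or its reverse complement AAACA, the core of sequences that forkhead factors recognise.
Foxi3, chr6:70956356-70956605, plus strand: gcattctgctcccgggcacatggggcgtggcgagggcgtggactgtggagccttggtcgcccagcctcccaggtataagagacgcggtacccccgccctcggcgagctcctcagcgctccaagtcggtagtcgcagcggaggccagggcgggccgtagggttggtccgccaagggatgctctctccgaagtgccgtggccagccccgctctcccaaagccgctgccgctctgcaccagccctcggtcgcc
Foxi1, chr11:34208090-34208339, minus strand: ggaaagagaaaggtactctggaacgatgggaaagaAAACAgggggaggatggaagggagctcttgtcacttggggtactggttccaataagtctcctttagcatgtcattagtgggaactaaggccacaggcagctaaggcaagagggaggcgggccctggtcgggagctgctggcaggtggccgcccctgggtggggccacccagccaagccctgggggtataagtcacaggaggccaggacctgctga
Foxi2, chr7:135410117-135410366, plus strand: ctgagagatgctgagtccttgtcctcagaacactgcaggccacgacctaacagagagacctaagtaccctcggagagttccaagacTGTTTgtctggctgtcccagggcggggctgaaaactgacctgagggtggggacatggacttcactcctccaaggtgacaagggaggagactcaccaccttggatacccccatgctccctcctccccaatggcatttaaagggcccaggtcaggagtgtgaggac

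The stretch before Foxi3 held no match to TGTTT on either strand. Foxi1 had 1 match, starting 215 bases before the start, and Foxi2 had 1, starting 164 bases before it. Promoter entries were found for 7 of the 10 genes, 9 stretches in all, since Foxp1 has 3. Of the 9 stretches 6 held TGTTT, all 3 of Foxp1 among them, so by gene it was 4 of the 7. This motif occurs in 46.4% of 32851 mouse promoter stretches of this length. The longer motif TGTTTAC, or its reverse complement GTAAACA, which contains the shorter one, was found in 1 of the 9, that of Foxa1, against 3.17% of all stretches. These matches describe letters in a short window and say nothing of binding. G and C made up 70.4% of the Foxi3 stretch, against 58.8% for Foxi1 and 56.8% for Foxi2.

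Expression is given as log2 values made with RMA (robust multi-array average), a method that removes background, gives every array the same distribution of probe signals and combines a gene's probes into 1 value. A difference of 1 on this scale is a doubling, and RMA narrows large differences and those of dim genes. Values of different genes come from different probes, so percentiles of mean signal, where given, describe how bright a gene's probes were and do not rank expression between genes. Differences run as cKO minus wild type and carry limma's moderated standard error (SE) and 95% interval. Adjusted p-values are Benjamini-Hochberg values over the 26165 genes. The intervals are not adjusted for the number of genes, and all p-values rest on the spread between pools.

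Array medians lay between 5.25 and 5.30 on 7 arrays and at 5.44 on wild-type replicate 2, whose distribution was also narrower. Correlations between arrays ran from 0.989 to 0.996 over all genes. Identifiers other than those of the 10 genes could not be paired with symbols, so further forkhead genes and marker genes of the epithelium, mesenchyme and blood were not analysed here. In pooled tissue, fewer cells that express a gene and less RNA per cell cannot be told apart.

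Foxi3 (ENSMUSG00000055874) is the targeted gene. On the arrays labelled cKO, replicates 1 to 4, its log2 values were 10.14, 10.01, 9.83 and 10.04, against 9.55, 9.77, 9.82 and 9.76 on the wild-type arrays. All 4 cKO values lay above all 4 wild-type values, as in 4.14% of all genes. The gap was narrow, however: cKO replicate 3, the lowest of its group, exceeded wild-type replicate 3 by 0.012. The means were 10.004 ± 0.129 in cKO and 9.726 ± 0.117 in wild type (SD, n = 4 each). The difference was 0.28 (SE 0.081, 95% interval 0.092 to 0.46, limma adjusted p = 0.23). It therefore missed the threshold over all genes, although the unadjusted limma p was 0.0086. An exact two-sided permutation test of this gene alone gave p = 0.029, the smallest value that 4 arrays against 4 can give.

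The interval for Foxi3 corresponds to 1.07-fold to 1.38-fold, so its lower bound is still above equal expression and no loss of signal was measured. Foxi3 lay at percentile 98.7 of mean signal among all genes and was bright on every array. The part of the Foxi3 transcript read by the probes, and its position relative to the floxed segment, are not given in the sources used here. The summarised value therefore does not check the deletion. Since this value cannot check the genotype, the knockout arrays are named by their label here, and every direction given rests on those labels. Among all genes, 587 had a difference at least as large as that of Foxi3 in the same direction, and 163 of these were called.

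**Figure D1:**
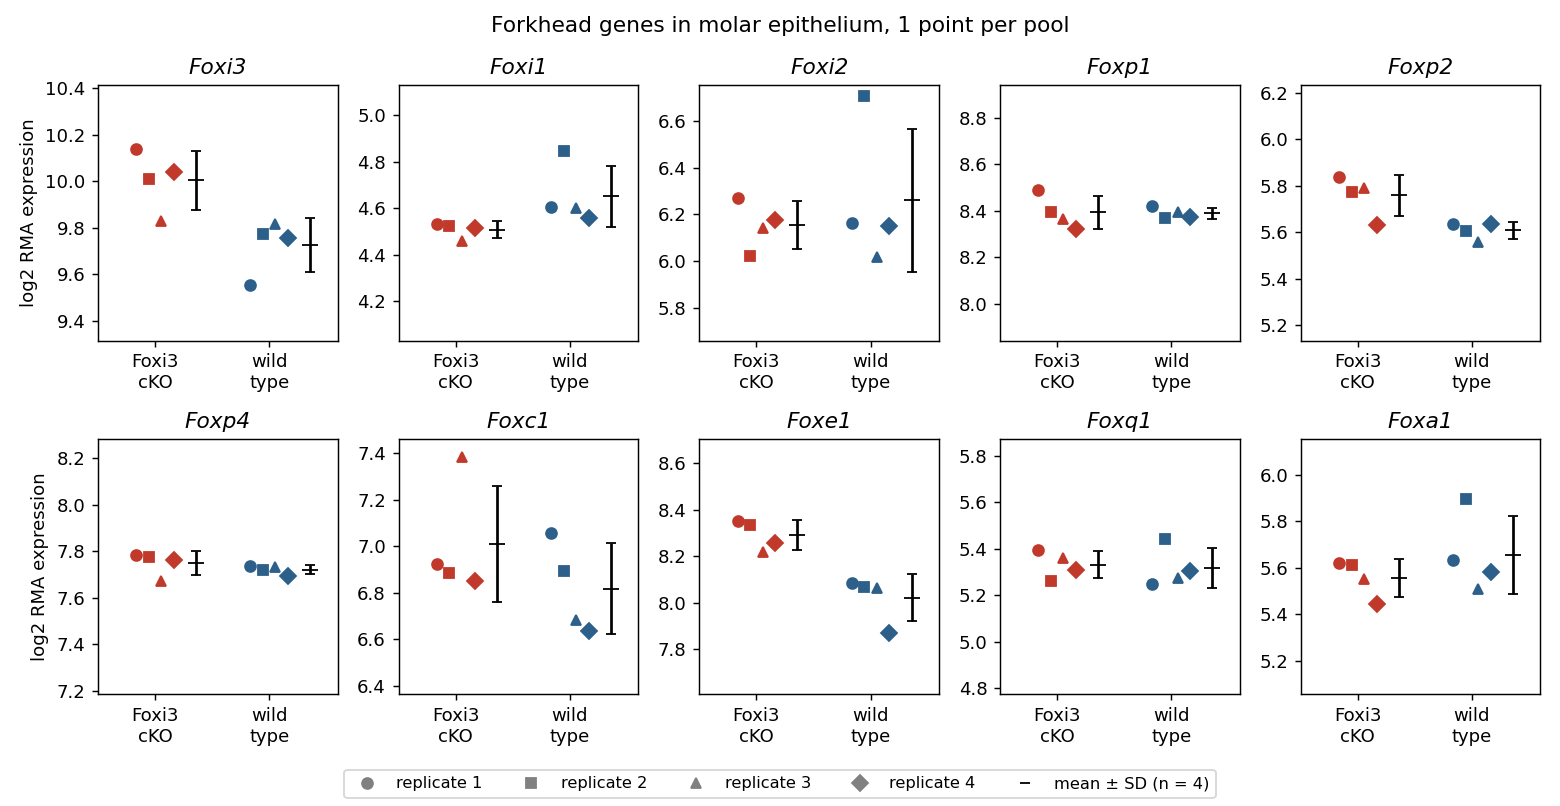
Log2 RMA expression (vertical axes, each spanning the same width) of the 10 forkhead genes in the 4 Foxi3 cKO pools (red) and the 4 wild-type pools (blue), 1 point per pool with the replicate number as symbol, and the mean ± SD beside them. All 4 cKO values lie above the wild-type values for Foxi3 and Foxe1 and below them for Foxi1. Among all genes, 7.85% separate in this way in either direction. Wild-type replicate 2 is the highest of the 8 arrays for Foxi1, Foxi2, Foxq1 and Foxa1.

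Foxi1 (ENSMUSG00000047861) directs the formation of ion-transporting cells in the inner ear, kidney and epididymis of mice. Foxi1 had log2 values of 4.54, 4.53, 4.46 and 4.52 on the arrays labelled cKO, against 4.61, 4.85, 4.60 and 4.56 on the wild-type arrays. The groups did not overlap, with a gap of 0.023, and wild-type replicate 2 was the highest value. The means were 4.51 ± 0.035 in cKO and 4.65 ± 0.13 in wild type (SD, n = 4 each). The difference was −0.14 (SE 0.067, 95% interval −0.30 to 0.0094, limma adjusted p = 0.55). Without wild-type replicate 2 the groups were closer, at −0.079 (limma adjusted p = 0.51). The probe signal of Foxi1 was at percentile 37.6 of all genes, below the 40th percentile at a log2 value of 4.72, which the other 9 genes exceeded. Without detection calls, its signal could not be told from background.

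Foxi2 (ENSMUSG00000048377) is expressed in the early ectoderm of the head in mice. Foxi2 had log2 values of 6.27, 6.02, 6.14 and 6.18 on the arrays labelled cKO, against 6.16, 6.71, 6.02 and 6.15 on the wild-type arrays. Wild-type replicate 2 stood above the other 7 arrays, which overlapped across genotypes. The means were 6.15 ± 0.10 in cKO and 6.26 ± 0.31 in wild type (SD, n = 4 each), and the wild-type SD was 0.080 without replicate 2. The difference of −0.11 (SE 0.14, 95% interval −0.43 to 0.22, limma adjusted p = 0.85) changed sign to 0.043 without that array (limma adjusted p = 0.90). The interval is the widest of the 10 genes and runs from 0.741-fold to 1.16-fold in cKO over wild type.

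Foxp2 (ENSMUSG00000029563) is known for its roles in the brain, in speech in humans, and in lung epithelium of mice. Foxp2 had log2 values of 5.84, 5.78, 5.79 and 5.63 on the arrays labelled cKO, against 5.64, 5.61, 5.56 and 5.64 on the wild-type arrays. The 3 highest values were cKO replicates 1 to 3, while cKO replicate 4 lay within the wild-type range. The means were 5.76 ± 0.089 in cKO and 5.61 ± 0.036 in wild type (SD, n = 4 each), a difference of 0.15 (SE 0.053, 95% interval 0.027 to 0.27, limma adjusted p = 0.38). An exact two-sided permutation test of this gene alone gave p = 0.086.

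Foxp1 (ENSMUSG00000030067), which acts in lymphocyte, heart and lung development, showed the smallest difference of the 10 genes. On the log2 scale it had 8.49, 8.40, 8.36 and 8.32 on the arrays labelled cKO, against 8.42, 8.37, 8.39 and 8.37 on the wild-type arrays, which lay inside the cKO range. The difference was 0.0032 (SE 0.047, limma adjusted p = 0.99), with a 95% interval from 0.930-fold to 1.08-fold.

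Foxp4 (ENSMUSG00000023991), a partner of Foxp1 and Foxp2 in lung epithelium of mice, had the narrowest interval of the 10 genes. The log2 values of Foxp4 were 7.79, 7.77, 7.67 and 7.76 on the arrays labelled cKO, against 7.73, 7.72, 7.73 and 7.69 on the wild-type arrays, and the groups overlapped. The difference was 0.028 (SE 0.041, limma adjusted p = 0.87), with a 95% interval from 0.954-fold to 1.09-fold. The difference was 0.053 without cKO replicate 3 and 0.062 (95% interval −0.076 to 0.20) with each array centred on its median, so the width of the range depends on the setting. The data do not show that the levels of Foxp1 or Foxp4 were equal.

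Foxe1 (ENSMUSG00000070990), a gene of thyroid and palate development whose loss causes cleft palate in mice, came closest to the threshold. Foxe1 had log2 values of 8.35, 8.34, 8.22 and 8.26 on the arrays labelled cKO, against 8.09, 8.07, 8.06 and 7.87 on the wild-type arrays. All cKO values were above all wild-type values, as in 4.14% of all genes. The gap of 0.13 was the widest among the 3 genes whose groups did not overlap, against 7.85% of all genes without overlap. The means were 8.29 ± 0.065 in cKO and 8.02 ± 0.10 in wild type (SD, n = 4 each). The difference was 0.27 (SE 0.061, 95% interval 0.13 to 0.41), or 1.21-fold, with a limma adjusted p of 0.11. Wild-type replicate 4 was the lowest array, and without it the difference was 0.22 (limma adjusted p = 0.18). Foxe1 passed the threshold under 2 of 16 other settings of the fit, when the dimmest 40% of genes were left out (limma adjusted p = 0.046) and with a trend and robust prior (limma adjusted p = 0.047).

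Foxc1 (ENSMUSG00000050295), a gene of the eye, skull and vessels that is also active in mesenchyme, varied most among the arrays labelled cKO. The log2 values of Foxc1 were 6.92, 6.88, 7.38 and 6.85 on the arrays labelled cKO, against 7.05, 6.89, 6.68 and 6.63 on the wild-type arrays. Replicate 3 alone stood above the rest of the arrays labelled cKO, and the groups overlapped. The means were 7.01 ± 0.25 in cKO and 6.82 ± 0.20 in wild type (SD, n = 4 each), a difference of 0.19 (SE 0.14, 95% interval −0.12 to 0.51, limma adjusted p = 0.75). Without cKO replicate 3 the difference was 0.069 (limma adjusted p = 0.92).

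Foxq1 (ENSMUSG00000038415), the gene mutated in satin mice with silky hair, lies near Foxc1 on the chromosome, with Foxf2 as the 1 protein-coding gene between them in the RefSeq table. For Foxq1 the log2 values were 5.39, 5.26, 5.36 and 5.31 on the arrays labelled cKO, against 5.25, 5.44, 5.27 and 5.30 on the wild-type arrays. The groups overlapped, with a difference of 0.015 (SE 0.056, 95% interval −0.11 to 0.14, limma adjusted p = 0.95). On cKO replicate 3, where Foxc1 was high, the value of Foxq1 was within the range of its group. Foxf2 was not analysed here, and the cause of the high Foxc1 value was not tested.

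Foxa1 (ENSMUSG00000035451) opens chromatin in the epithelia of endodermal organs. Its log2 values were 5.62, 5.61, 5.55 and 5.44 on the arrays labelled cKO, against 5.64, 5.90, 5.51 and 5.58 on the wild-type arrays. Wild-type replicate 2 was again the highest, and the other arrays overlapped. The difference was −0.099 (SE 0.086, 95% interval −0.30 to 0.098, limma adjusted p = 0.79), and −0.020 without that array (limma adjusted p = 0.96).

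**Figure D2:**
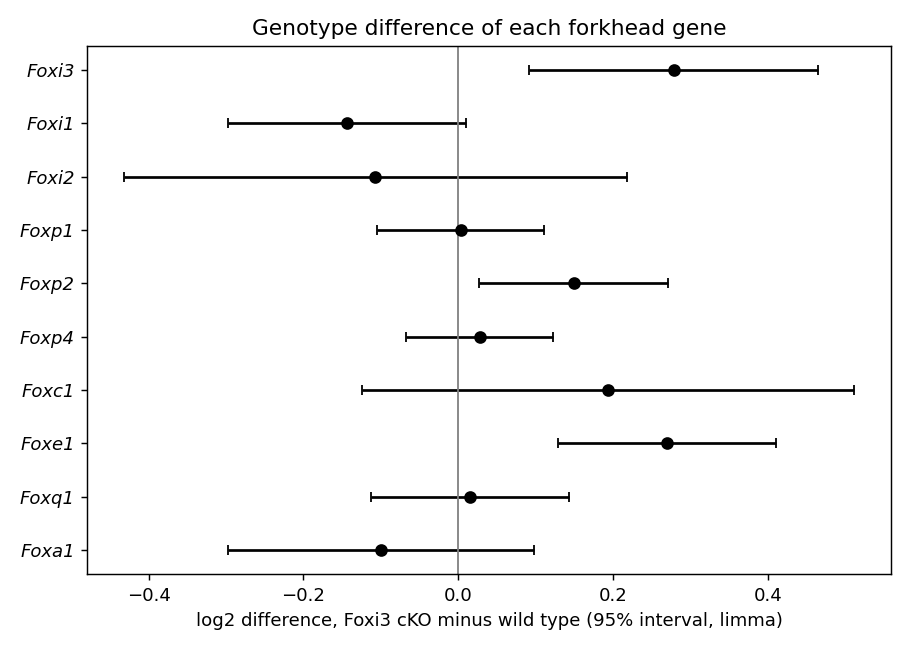
Log2 difference, cKO minus wild type (horizontal axis), of each of the 10 forkhead genes with its unadjusted 95% interval from limma (4 arrays per genotype). The intervals of Foxi3, Foxp2 and Foxe1 lie above 0 and the other 7 span it, and none of the 10 genes passed the adjusted threshold.

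Of the 10 genes, 0 were called at a limma adjusted p under 0.05, against 1.31% of all genes (0.688% higher and 0.619% lower in cKO). At an unadjusted limma p under 0.05 the count was 3 of 10 (Foxi3, Foxp2 and Foxe1, all higher in cKO), against 9.67% of all genes. The 4 values of one genotype lay beyond all 4 of the other in 3 of 10 genes (Foxi3 and Foxe1 higher, Foxi1 lower), against 7.85% of all genes (4.14% higher and 3.71% lower in cKO). Differences were positive in 7 and negative in 3 of the genes, against 42.2% positive among all genes. The median difference was 0.021 for the 10 genes and −0.018 for all genes. Without wild-type replicate 2 the median of all genes was 0.0018, so the all-gene median depended on that array. In a list of 10 genes chosen with results of these data known, these counts are a description.

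Wild-type replicate 2 had the highest value of the 8 arrays for 4 of the 10 genes, against 36.4% of all genes. It exceeded the average of wild-type replicates 1, 3 and 4 by 0.60 for Foxi2, while the median over all genes of similar mean signal (1 of 10 bins with equal numbers of genes) was −0.012. For Foxi1 it was 0.26 against 0.24, for Foxq1 0.17 against 0.14, and for Foxa1 0.32 against 0.14. For Foxi1 and Foxq1 the array thus deviated about as much as the median gene of that brightness, and for Foxi2 far more than the median gene. The spread of genes around these medians is not given here. Foxi3 deviated by 0.065, against −0.068 for genes of similar signal.

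**Figure D3:**
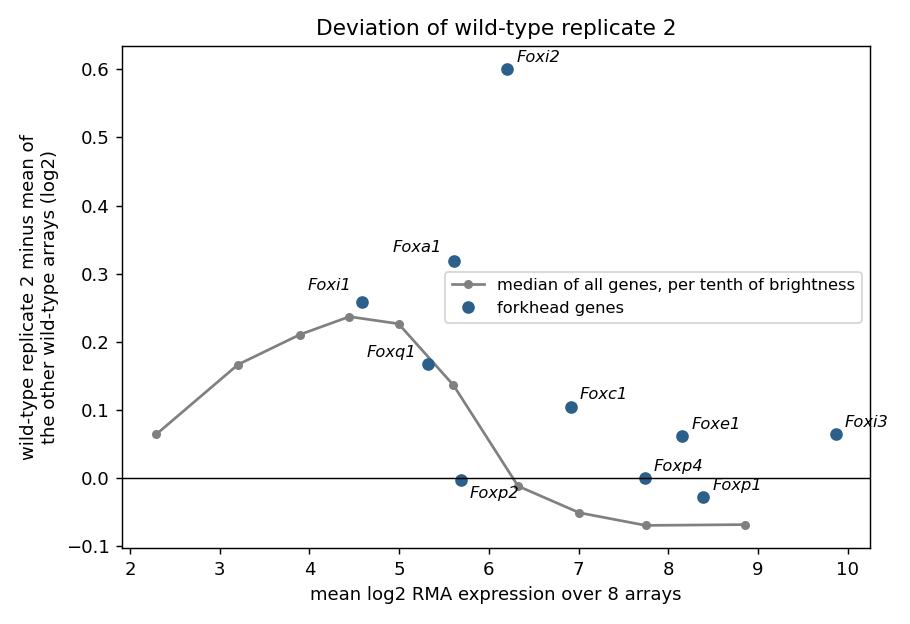
Wild-type replicate 2 minus the average of wild-type replicates 1, 3 and 4 (vertical axis, log2) against mean log2 RMA expression over the 8 arrays (horizontal axis). Blue points are the 10 forkhead genes and the grey line joins the medians of all genes in 10 bins of mean signal, with Foxi2 at 0.60 the farthest above the line.

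Leaving out any 1 array kept the difference of Foxi3 between 0.22, without wild-type replicate 1, and 0.34, without cKO replicate 3. Its limma adjusted p ran from 0.15 to 0.48 over these fits, so the threshold was passed in none of them. Foxe1 ranged from 0.22 to 0.29 and Foxp2 from 0.12 to 0.19 in the same fits. The sign of Foxi2 depended on wild-type replicate 2.

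**Figure D4:**
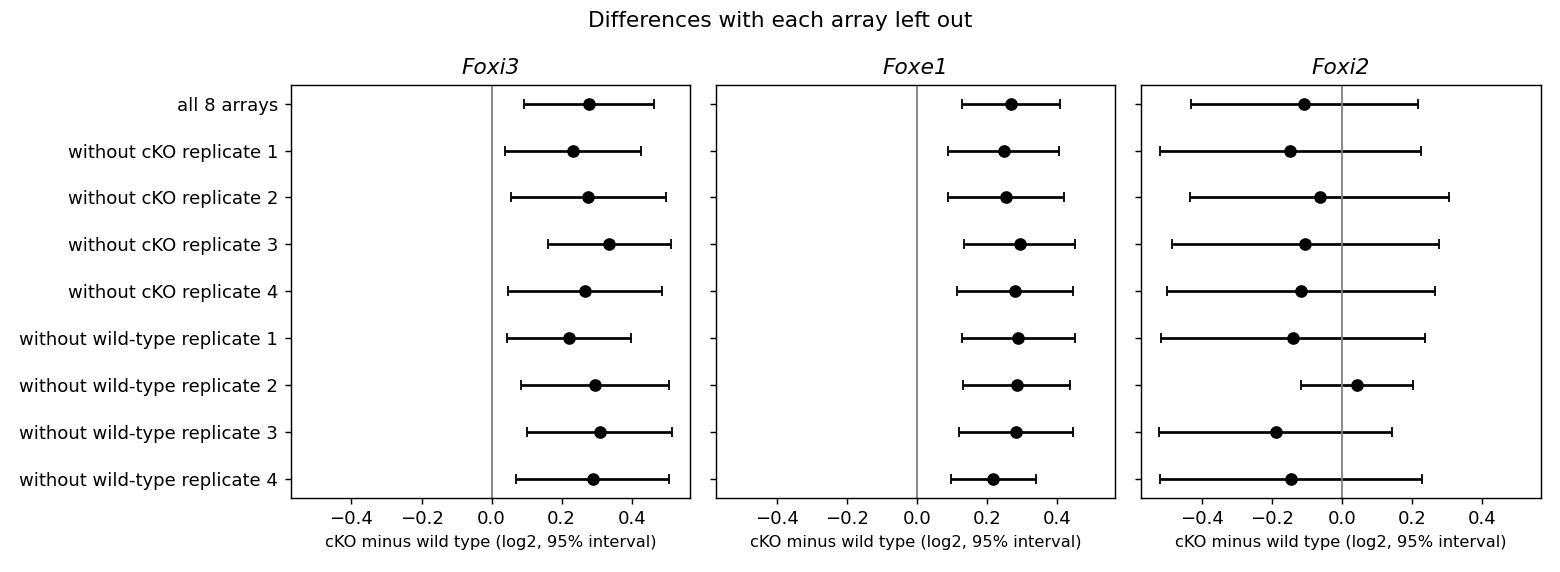
Log2 difference, cKO minus wild type (horizontal axes), of Foxi3, Foxe1 and Foxi2 with all 8 arrays and with each array left out in turn, with unadjusted 95% intervals from limma. Foxi3 stays between 0.22 and 0.34 and Foxe1 between 0.22 and 0.29, while Foxi2 turns from negative values to 0.043 without wild-type replicate 2.

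Genes whose profile over the 8 arrays was nearest to that of Foxi3 were found by the root mean square difference after each gene was centred on its own mean. ENSMUSG00000081340 was nearest, at 0.045, and ENSMUSG00000076694 next, at 0.052, against a median of 0.21 over all genes. A gene with the same value on every array would lie at 0.18, the root mean square of the centred Foxi3 profile. ENSMUSG00000081340 had a difference of 0.24 (SE 0.070, limma adjusted p = 0.24) and ENSMUSG00000076694 one of 0.25 (SE 0.063, limma adjusted p = 0.16). The signals of these 2 genes were among the dimmest, at percentiles 2.99 and 0.340 of mean signal, and the files used here do not pair these identifiers with symbols. Among the other 9 forkhead genes Foxe1 was nearest to Foxi3, at 0.12 and rank 291 of all genes, and Foxc1 the farthest, at 0.29. The measure uses the same 8 arrays as the comparison above and is a description. The 2 nearest genes were picked for their likeness, so differences near that of Foxi3 follow from the choice.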

How the data were processed

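The deposited table holds log2 expression values of 8 arrays, which the authors computed by RMA (per the submitters' processing notes). Its version, the array model, probe annotation and genome build are not given in the sources used here. All columns carry sample accessions and were used, and identical arrays were not found. Precision is limited by the number of pools.

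For the genotype comparison, lmFit and eBayes of limma 3.58.1 (R 4.3.3, two-sided, default prior) were run on all 26165 deposited rows, unfiltered, with no term but genotype. Calls required an adjusted p under 0.05. The step was tested on simulated data, whose outcome is not reported here, and nothing about these arrays is concluded from that test. Single genes were also compared by an exact two-sided permutation test over the 70 splits of the arrays. Replicate numbers are not stated to mark a shared litter or day and were not used as pairs.

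The 10 members, with their symbols, and the tests were chosen with earlier results of these data known. All 10 are named, and the rule for genes most like Foxi3 took the 2 nearest identifiers. The Ensembl column of the RefSeq table matched 0 of the 26165 identifiers, so the planned counts of other forkhead genes and of cell type markers were not run. Promoter entries were matched by symbol for 7 of the 10 genes. Alternatives were the replicate block, arrays left out, other normalizations, a filter on dim genes, array weights, another prior and a threshold of 0.1.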

Additional observations from a re-analysis of the deposited data

Results flagged for a closer look

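Each of the 10 forkhead genes was checked in each genotype for an array far from the other 3 arrays of its group (20 checks; about 1 in 20 is reached by chance). An array stood apart in 3 of them, each in a different gene. Foxi1 on wild-type replicate 2 had a log2 value of 4.85, against 4.56 to 4.61 on the other wild-type arrays. It exceeded their average by 0.26, against a median of 0.24 over all genes of similar mean signal, so this deviation was not particular to Foxi1. Foxc1 on cKO replicate 3 had 7.38, against 6.85 to 6.92 on the other arrays labelled cKO. Foxe1 on wild-type replicate 4 had 7.87, against 8.06 to 8.09 on the other wild-type arrays.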

How the results depend on the processing

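Foxi3 kept a positive difference under all 16 alternative fits, from 0.22 to 0.34, and passed the adjusted threshold in none of them (limma adjusted p from 0.13 to 0.53). With the replicate number as a block the difference was 0.28 (limma adjusted p = 0.53) and 0 of the 10 genes were called, in a fit that called 18 of all genes (0.0688%). Same-numbered pools did not deviate together (correlations from −0.090 to 0.020 over all genes), and only for cKO replicate 4 was the wild-type pool of the same number its best match. Taken alone, the exact permutation test, not adjusted for the number of genes, gave p = 0.029 for Foxi3, with its difference of 0.28. The same test gave the same p for Foxe1 and Foxi1. This is the smallest value that 4 arrays against 4 can give. Any gene whose groups do not overlap reaches it, 7.85% of all genes, so it only restates that separation. The count of called genes was 0 with any 1 array left out, where 0.455% to 1.16% of all genes were called. It was 1, Foxe1, without the dimmest 40% of genes (3.2% of all genes tested), a filter that left 9 of the 10 genes and removed Foxi1. With the trend and robust prior it was also 1, Foxe1 (1.72% of all genes). The cause was not tested. Foxp1, near 0, turned to −0.037 without wild-type replicate 2 and cKO replicate 1, −0.016 with repeated quantile normalization, −0.016 with cyclic loess and −0.015 with array weights, was 0.038 with each array centred on its median, and ranged from −0.030 to 0.027 with 1 array left out. Foxi2 was 0.0034 without wild-type replicate 2 and cKO replicate 1, and ranged from −0.19 to 0.043 with 1 array left out. Foxq1 ranged from −0.0081 to 0.057. Foxp4, Foxp2, Foxe1, Foxc1 and Foxa1 kept their sign throughout, as did Foxi1 in every fit that included it. Without detection calls, the signal of Foxi1 could not be told from background.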
